A study of Mus musculus with 7 samples.

Results

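Interleukin-6 and its relatives signal through receptors that share the subunit gp130, and 10 genes of this family were described here across 3 kinds of mouse hindlimb tendon. They are the ligand genes Il6, Osm and Lif, the receptor genes Il6ra, Il11ra1, Osmr, Lifr and Il6st, and the signalling genes Stat3 and Socs3. The 10 genes were taken by symbol, whatever their values, from the 42689 genes to which the deposited transcripts could be assigned. RNA sequencing of 7 libraries from mice of C57BL/6 background made up the study, whose title concerns tissue regeneration and the kinase TAK1. The injury used, a burn together with a cut tendon, is a known mouse model of heterotopic ossification, the formation of bone in soft tissue.

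The tenotomy group (n = 2) was the injured left leg of mice that had their Achilles tendon cut and received a partial-thickness burn of the back, for which a metal block of 60 °C touched 30% of the body surface during 18 s. Tissue was taken 3 weeks later, between the gastrocnemius muscle and the heel. The contralateral group (n = 3) was the uncut tendon of the right leg of such mice at the same time, so these animals carried the burn and the cut as well. The uninjured group (n = 2) was tendon of wild-type mice with neither injury. No label gives an age, or says which libraries came from the same mouse, so p-values measure the spread between these libraries only.

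As background, interleukin-6 and interleukin-11 each first bind their own receptor chain, and the complex then recruits gp130, encoded by Il6st. The receptors of oncostatin M and leukaemia inhibitory factor (LIF) pair gp130 with a second signalling chain, encoded by Osmr or Lifr. Bound gp130 activates JAK kinases, which phosphorylate the transcription factor STAT3. STAT3 switches on Socs3, whose protein binds gp130 and the JAKs and shuts the signal down, so that Socs3 RNA is commonly read as a sign of recent signalling. In injured tissue, IL-6 and oncostatin M come mostly from leukocytes and activated stromal cells, while LIF and ciliary neurotrophic factor are also known from muscle and nerve.

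Libraries held between 25927171 and 36725106 estimated counts, of which between 4934057 and 8375626 lay outside the 5 most abundant features. Values below are CPM, the counts divided by each library's TMM-scaled size, and 1 count was worth 0.0272 to 0.0375 CPM. The tendon markers Scx, Tnmd, Mkx, Fmod, Thbs4, Col1a1 and Col3a1 were detected, with a summed level of 4884.8 and 4887.6 CPM at the tenotomy site and 722.4 to 894.1 CPM in contralateral tendon. Most of that sum was Col1a1 and Col3a1, with means of 2570 and 2010 CPM at the tenotomy site and 439 and 192 CPM in contralateral tendon. Of the 7 markers, 4 were higher past the threshold, and Mkx and Fmod overlapped. The summed level of 9 skeletal muscle markers was 748.7 and 746.4 CPM at the tenotomy site against 7323.7 to 9512 CPM in contralateral tendon, and 9 of 9 were lower past the threshold. That of 7 macrophage markers was 108.9 and 112.1 against 25.4 to 30.8 CPM, and 6 of 7 were higher past the threshold. No marker of either list was at 0 in all libraries. The library labelled uninjured replicate 1 stood with the tenotomy libraries in both sums (922.2 CPM for muscle and 111.9 for macrophage), whereas uninjured replicate 2 stood near the contralateral libraries (6859.8 and 31.2). In the tendon marker sum both uninjured libraries, at 4455.8 and 2821.7 CPM, lay above every contralateral one. Col1a1 alone was at 2360 and 2210 CPM in them and at 373 to 478 CPM in contralateral tendon, while Scx, Mkx, Fmod and Thbs4 overlapped. Whether the label of uninjured replicate 1 is right was not tested, which bears on every comparison with uninjured tendon. Summed levels of 5 adipocyte markers were 58.1 and 58.3 CPM at the tenotomy site and 117.9 to 147.3 in contralateral tendon, and 2 of 5 fell. Those of 5 neutrophil markers were 1.52 and 1.73 against 0.375 to 0.804 CPM, and those of 4 T cell markers 1.82 and 1.67 against 0.512 to 0.825. In each of these lists 2 markers were tested and 1 rose. All these sums moved with the differences between tenotomy and contralateral tendon given below, and their part in those differences was not tested. In bulk tissue, fewer cells of a type and less RNA per cell cannot be told apart.

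The levels of the genes were first compared with each other per transcript length, using the deposited TPM values of protein-coding transcripts, which are scaled for transcript length and library size. These values are small because a few abundant RNAs outside this family take most of each library. Il6st was the highest of the 10 genes in every library, with 1.45 TPM ± 0.261 (SD, n = 3) in contralateral tendon and 2.11 ± 0.0568 (SD, n = 2) at the tenotomy site. In contralateral tendon it was followed by Lifr at 0.571 ± 0.081, Il11ra1 at 0.474 ± 0.106 and Stat3 at 0.36 ± 0.0576 (SD, n = 3). Neighbours among these 3 overlapped between libraries. Il6ra at 0.139 ± 0.0239 and Osmr at 0.107 ± 0.0143 overlapped as well, and Socs3 lay below them at 0.0415 ± 0.00181 (SD, n = 3). The ligands were the lowest, with Lif at 0.012 ± 0.000634, Osm at 0.00226 ± 0.000503 and Il6 listed at 0. At the tenotomy site the order differed in the middle: the mean of Socs3, 0.353 ± 0.0725, stood above those of Lifr (0.302 ± 0.00222) and Osmr (0.15 ± 0.00311; SD, n = 2 for each). Socs3 and Lifr overlapped there, since Socs3 was at 0.302 and 0.405 TPM and Lifr at 0.3 and 0.303.

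**Figure D1:**
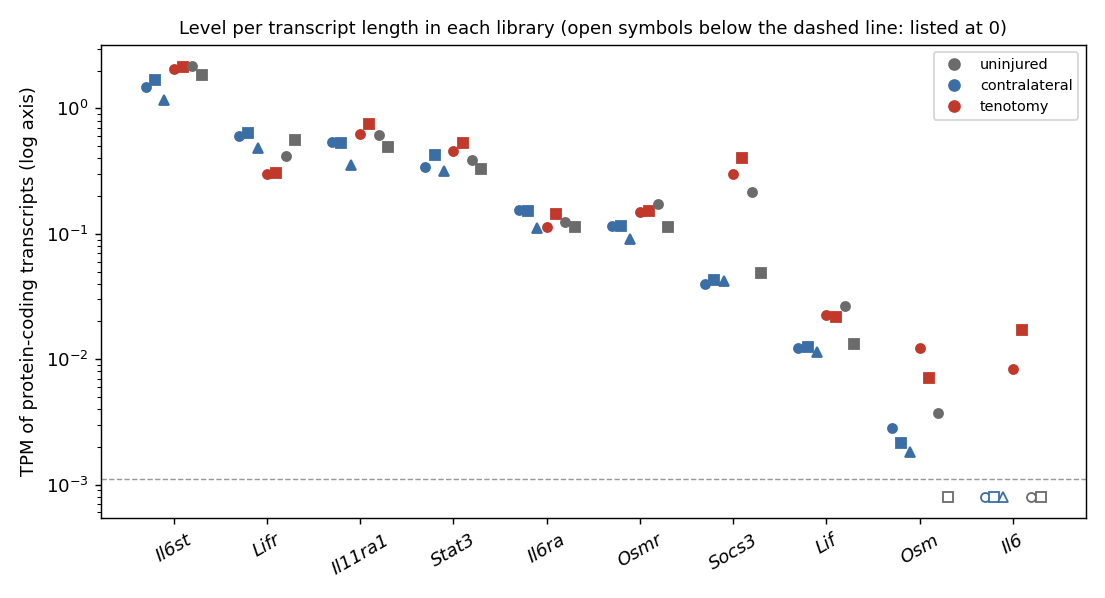
Deposited TPM of protein-coding transcripts (vertical log axis) for the 10 genes (horizontal axis) in each of the 7 libraries; colour gives the group, and circle, square and triangle give replicates 1, 2 and 3. Il6st is highest throughout, the ligands Lif, Osm and Il6 are lowest, and open symbols under the dashed line mark libraries where a gene is listed at 0.

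The comparison of tenotomy with contralateral tendon asked how the cut tendon differed from the uncut tendon of mice with the same injuries. After a filter on low counts, 8 of the 10 genes were tested; Il6 and Osm had too few counts. With edgeR's quasi-likelihood test over all libraries together, 5 of the 8 passed an adjusted p-value of 0.05, against 29.0% of all 16028 genes tested (13.6% higher and 15.4% lower). Socs3, Stat3, Osmr and Il11ra1 rose and Lifr fell, while Il6st, Lif and Il6ra did not pass. The median log2 fold change of the 8 genes was 0.52, against -0.0012 over all genes tested. The libraries of both groups did not overlap for 7 of the 8, against 63.7% of all genes. Of the 8, 6 were higher without overlap, against 31.9%, and 1 was lower, against 31.8%. These counts and the median take Il11ra1 without its copies, whose sum is given below. When any contralateral library (replicate 1, 2 or 3) or any tenotomy library (replicate 1 or 2) was left out of this fit, 0 genes of any kind passed. The log2 fold changes moved little: that of Socs3 lay between 2.95 and 3.23 and that of Lifr between -0.93 and -0.87. In a fit of the tenotomy and contralateral libraries alone, 7 of the 8 passed, but so did 7385 genes in all, against 4643 in the fit of all libraries. With any contralateral library left out of it, 6 of the 8 passed, among 6317 to 7618 genes in all. Without tenotomy replicate 1 or 2, the log2 fold change was 3.22 or 2.96 for Socs3 and -0.91 or -0.88 for Lifr. Where 1 tenotomy library was left, it was assumed to vary like the contralateral ones.

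**Figure D2:**
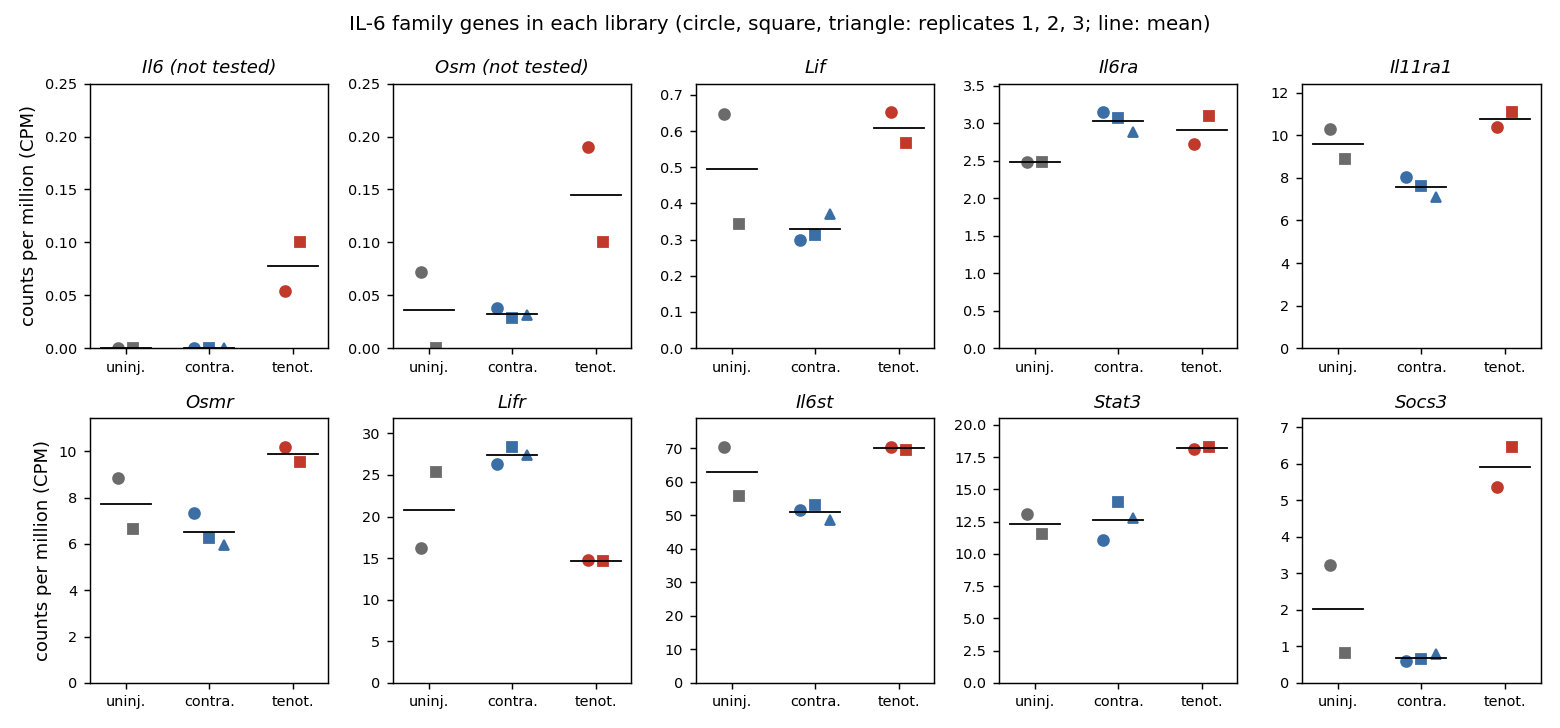
CPM (vertical axes, each from 0) of the 10 genes in the uninjured, contralateral and tenotomy libraries; circle, square and triangle are replicates 1, 2 and 3 and the line is the group mean. Socs3 is at 5.38 and 6.47 CPM at the tenotomy site and at most 0.804 CPM in contralateral tendon, and Lifr is the gene whose tenotomy libraries lie below all others.

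Among the ligands, Il6 (chromosome 5, 30013114 to 30019981, plus strand, GRCm38), the gene of interleukin-6 itself, had 0 counts in all contralateral and uninjured libraries and 2 and 3 counts in tenotomy replicates 1 and 2. A count of 0 allows up to 3 counts, which is 0.0854 to 0.112 CPM in the contralateral and uninjured libraries, and the tenotomy values of 0.0544 and 0.1 CPM do not exceed that range. Osm (chromosome 11, 4236420 to 4241026, plus strand), encoding oncostatin M, had 1 count in each contralateral library, 7 and 3 counts in the tenotomy libraries and 2 and 0 in the uninjured ones. Tested without the filter, neither gene passed (edgeR adjusted p = 0.188 for Il6 and 0.251 for Osm). A difference in these cytokine RNAs was not detectable at this depth.

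Lif (chromosome 11, 4257557 to 4272514, plus strand), which encodes leukaemia inhibitory factor and lies next to Osm, was the best covered ligand, with 8 to 24 counts per library. It was at 0.653 and 0.567 CPM in the tenotomy libraries and at 0.3, 0.313 and 0.371 in the contralateral ones. The groups did not overlap, but the log2 fold change of 0.89 (SE 0.35) missed the threshold (edgeR adjusted p = 0.0937). It passed when only these groups were fitted (edgeR adjusted p = 0.0473). Uninjured replicate 1 was at 0.647 CPM, within the tenotomy range, and uninjured replicate 2 at 0.344, within the contralateral range.

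The binding receptors showed no clear rise. Il6ra (chromosome 3, 89864059 to 89913196, minus strand), encoding the chain that binds interleukin-6, was at 2.72 and 3.1 CPM at the tenotomy site and at 3.15, 3.07 and 2.88 in contralateral tendon. The ranges overlapped, and the fitted log2 difference was -0.061 (SE 0.142; adjusted p = 0.781, edgeR), which turned positive with upper quartile scaling (0.051) and without tenotomy replicate 1 (0.028). An antisense gene, Gm42809, overlaps Il6ra, and no source used here states whether strand was used in counting.

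Il11ra1 (chromosome 4, 41699989 to 41769474, plus strand), the receptor of interleukin-11, was at 10.4 and 11.1 CPM at the tenotomy site and at 8.06, 7.63 and 7.08 in contralateral tendon. Taken alone it rose by 0.51 in log2 units (SE 0.14; adjusted p = 0.0346, edgeR). Other annotated genes overlap it, among them Galt on the same strand and Ccl27a on the opposite one. However, 57.7% of the distinct 31-base words of its transcripts also occur in Gm13305, and those of the third copy, Il11ra2, all do, so reads had to be divided between the copies. Gm13305 went the other way, with 0.0544 and 0.133 CPM at the tenotomy site and 3.6, 1.99 and 1.55 in contralateral tendon. Il11ra2 had 0 counts in both tenotomy libraries, in contralateral replicate 1 and in uninjured replicate 1, and 14 counts in each of the other libraries. Counted as 1 gene, the copies were at 10.5 and 11.2 CPM against 11.7, 10 and 9.06, which overlap, and the log2 fold change was 0.086 (SE 0.156; adjusted p = 0.717, edgeR). The rise of Il11ra1 is thus lost when the copies are summed, and 4 genes of the family are left as called in this comparison.

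**Figure D3:**
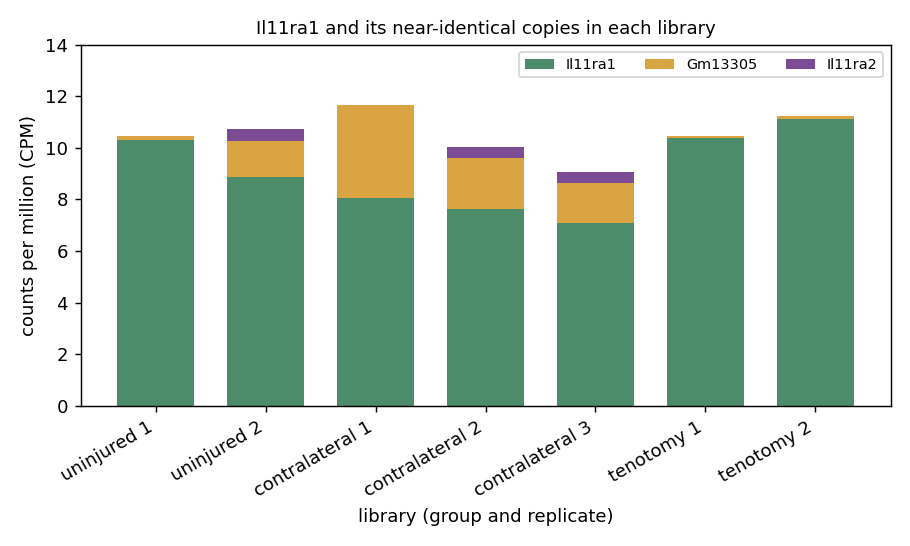
CPM (vertical axis) assigned to Il11ra1, Gm13305 and Il11ra2, stacked, in each of the 7 libraries (horizontal axis). The stacks of the tenotomy libraries (10.5 and 11.2 CPM) lie within the range of the contralateral stacks (9.06 to 11.7 CPM), while the share assigned to Gm13305 is smallest in the tenotomy libraries and uninjured replicate 1.

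The signalling chains that pair with gp130 moved in opposite directions. Osmr (chromosome 15, 6813577 to 6874969, minus strand), the chain for oncostatin M, was at 10.2 and 9.53 CPM at the tenotomy site and at 7.35, 6.26 and 5.97 in contralateral tendon. It rose 1.52-fold (log2 difference 0.60, SE 0.17; edgeR adjusted p = 0.0369), but missed the threshold with DESeq2 (adjusted p = 0.0621) and without a filter on low counts (edgeR adjusted p = 0.0511). Lifr (chromosome 15, 7090614 to 7197489, plus strand), the chain for LIF, was at 14.8 and 14.6 CPM at the tenotomy site and at 26.3, 28.4 and 27.4 in contralateral tendon. It fell 1.86-fold (log2 fold change -0.90, SE 0.21, edgeR adjusted p = 0.0212). The fall passed in 9 of 9 alternatives that left out no library of the groups compared, where it ranged from -0.91 to -0.78. Among them, the title-series covariate let only tenotomy replicate 1 set the tenotomy level (log2 fold change -0.89). Uninjured replicate 1, with 16.2 CPM, was near the tenotomy level and uninjured replicate 2, with 25.3, near the contralateral level, the same order as their muscle markers.

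Il6st (chromosome 13, 112464070 to 112510086, plus strand), encoding gp130, was the best covered gene, with 1375 to 2587 counts per library. It was at 70.4 and 69.5 CPM at the tenotomy site and at 51.5, 53 and 48.6 in contralateral tendon. The groups did not overlap. The 1.37-fold difference (log2 0.45, SE 0.18) missed the threshold in the fit of all libraries (edgeR adjusted p = 0.0907). It passed in the fit of these groups alone (SE 0.092, edgeR adjusted p = 0.00169). With the title series as a covariate the log2 difference was 0.46. That value rests on tenotomy replicate 1 alone, because the series terms fit tenotomy replicate 2 exactly. Uninjured replicates 1 and 2 were at 70.3 and 55.6 CPM, which is the widest spread of this gene within any group and enters the error of the fit of all libraries.

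Stat3 (chromosome 11, 100885098 to 100939540, minus strand), the transcription factor downstream of gp130, was at 18.1 and 18.3 CPM at the tenotomy site, above 11.1, 14 and 12.8 in contralateral tendon and above 13.1 and 11.5 in uninjured tendon. It rose 1.44-fold over contralateral tendon (log2 fold change 0.53, SE 0.16, edgeR adjusted p = 0.0425). The call was lost with DESeq2 (adjusted p = 0.0533), without a filter on low counts (edgeR adjusted p = 0.0949) and with length-scaled TPM (edgeR adjusted p = 0.0959). Unlike Il6st and Lif, Stat3 in uninjured replicate 1 did not reach the tenotomy range. Stat5a overlaps Stat3 on the opposite strand.

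Socs3 (chromosome 11, 117966079 to 117970047, minus strand), the feedback inhibitor, showed the largest change of the 8 tested genes. It was at 5.38 and 6.47 CPM at the tenotomy site, from 198 and 194 counts, and at 0.6, 0.655 and 0.804 CPM in contralateral tendon, from 16 to 26 counts. It rose 8.55-fold (log2 fold change 3.10, SE 0.47, edgeR adjusted p = 0.0167). The rise passed in 9 of 9 alternatives that left out no library of the groups compared, with log2 fold changes between 2.96 and 3.21. The lowest of these came from the title-series covariate, where only tenotomy replicate 1 set the tenotomy level. Relative to the contralateral mean, the difference in log2 CPM was 2.87 for tenotomy replicate 1, whose title number belongs to the same series as the contralateral libraries, and 3.13 for replicate 2, of another series. Uninjured replicate 1 stood between the groups at 3.23 CPM and uninjured replicate 2 at 0.826, just above the contralateral range.

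The bases before the start of Socs3 and Stat3 are shown because both genes rose and both are known targets of STAT3. Promoters came from RefSeq (GRCm38.p6), in which 9 of the 10 genes had an entry. The 250 bases before each start were searched on both strands for the STAT-type motif TTCNNNGAA and the AP-1-type motif TGANTCA, which do not overlap each other here. Each motif reads the same on both strands. Capitals mark the STAT-type match.
Socs3, chr11:117969452-117969616, minus strand: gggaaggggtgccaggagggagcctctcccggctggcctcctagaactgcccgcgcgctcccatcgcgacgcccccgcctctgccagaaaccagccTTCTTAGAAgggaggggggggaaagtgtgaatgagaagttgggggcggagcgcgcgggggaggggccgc
Stat3, chr11:100939541-100939790, minus strand: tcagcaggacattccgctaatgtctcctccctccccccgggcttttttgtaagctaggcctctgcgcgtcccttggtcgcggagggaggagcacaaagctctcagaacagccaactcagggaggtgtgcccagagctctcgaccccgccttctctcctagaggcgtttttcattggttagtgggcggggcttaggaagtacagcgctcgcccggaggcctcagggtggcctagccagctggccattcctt
The Socs3 match begins 154 bases before the RefSeq start. The printed Socs3 stretch lies outside every exon of GENCODE M21, although inside the bounds of the gene, because an annotated transcript begins farther upstream. The Stat3 stretch ends just before the gene's first base and holds neither motif. The 9 genes had 11 windows. Of these, 1 held the STAT-type motif, that of Socs3, against 7.02% of 32851 promoter windows. The AP-1-type motif was in 2, those of Il6 and Lif, against 6.75%. A match describes letters and not binding.

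**Figure D4:**
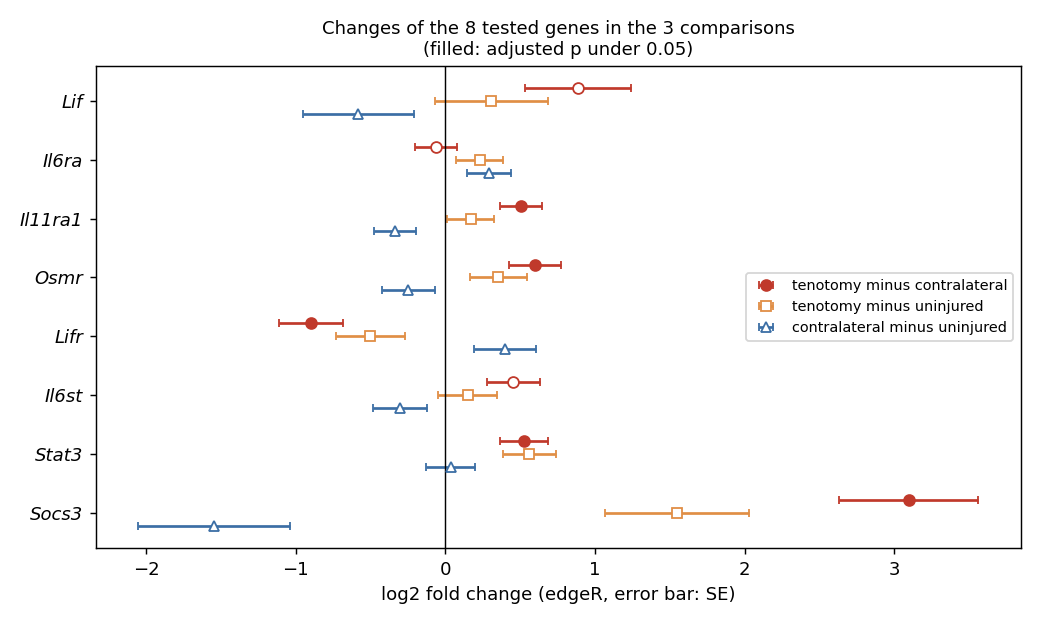
Log2 fold changes from edgeR (horizontal axis; error bars are SE) of the 8 tested genes (vertical axis) in the 3 comparisons; filled symbols passed an adjusted p-value of 0.05. Filled symbols occur for Il11ra1, Osmr, Lifr, Stat3 and Socs3 in tenotomy minus contralateral, and no symbol is filled in the comparisons with uninjured tendon.

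Other ligands and receptors of the family moved both ways between tenotomy and contralateral tendon. Of a list of 13, 8 were tested, of which 2 rose, 2 fell and 4 did not pass, and their median log2 fold change was -0.99. The 8 include Il11ra2, a copy of Il11ra1 with reads divided between copies, at -6.19 (edgeR adjusted p = 0.139). The median was not taken without it. Over all genes tested, 13.6% rose and 15.4% fell. Among those that rose was Clcf1, which encodes a ligand of the ciliary neurotrophic factor receptor. Clcf1 averaged 0.286 CPM ± 0.125 (SD, n = 3) in contralateral tendon and 0.878 ± 0.126 (SD, n = 2) at the tenotomy site, a log2 difference of 1.63 (adjusted p = 0.0275, edgeR). The ligand-binding chain of that receptor, Cntfr, fell by 1.69 in log2 units (adjusted p = 0.0228, edgeR). Its mean was 3.03 CPM ± 0.561 (SD, n = 3) in contralateral tendon and 0.935 ± 0.0916 (SD, n = 2) at the tenotomy site. Ctf1, encoding cardiotrophin-1, fell by 2.34 on the log2 scale (edgeR adjusted p = 0.0305), although contralateral replicate 1 at 0.262 CPM was far below replicates 2 and 3 at 0.854 and 0.928. The call of Ctf1 was lost with limma-voom and with the title series as a covariate. Il11, whose product binds Il11ra1, had 1 to 6 counts per library and was not tested.

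Of 16 kinases, STATs and regulators of the pathway, all were tested, and 5 rose, 2 fell and 9 did not pass, against 13.6% of all genes higher and 15.4% lower. Their median log2 fold change was 0.33. Among the JAK kinases, Tyk2 averaged 2.1 CPM ± 0.125 (SD, n = 3) in contralateral tendon and 3.44 ± 0.0149 (SD, n = 2) at the tenotomy site. It rose by 0.71 in log2 units (SE 0.14; adjusted p = 0.0167, edgeR). Jak1 changed by -0.13 (edgeR adjusted p = 0.625) and Jak2 by -0.44 (edgeR adjusted p = 0.0894), neither past the threshold. The largest rises were of the inhibitor gene Socs1, of Ptpn6, which encodes the phosphatase SHP-1 of blood cells, and of Socs2, with log2 fold changes of 2.66, 1.98 and 0.79 (edgeR adjusted p = 0.0343, 0.0167 and 0.0205). Socs1 rested on 18 and 27 counts at the tenotomy site and 1 to 5 in contralateral libraries, and missed the threshold with limma-voom. The falls were of Stat5b, by 1.06 on the log2 scale, and of Ptpn11, by 0.92 (edgeR adjusted p = 0.0293 and 0.0167). Ptpn11 encodes SHP-2, the phosphatase that docks on gp130 at the site also bound by SOCS3. With length-scaled TPM, the call of Stat5b was lost.

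Genes known as targets of gp130 and STAT3 were compared next. Of a list of 18, all were tested, and 8 rose, 2 fell and 8 did not pass, against 13.6% of all genes higher and 15.4% lower, with a median log2 fold change of 0.78 against -0.0012 over all genes. The largest rises were of Timp1, an inhibitor of matrix metalloproteinases, which averaged 0.301 CPM ± 0.0729 (SD, n = 3) in contralateral tendon and 5.34 ± 0.865 (SD, n = 2) at the tenotomy site and rose by 4.11 in log2 units. Bcl3, a regulator of NF-κB, rose by 3.28 and the immediate early gene Fos by 2.60 on the log2 scale (edgeR adjusted p = 0.0167 for Timp1 and Fos, and 0.02 for Bcl3). The other 5 rises, named here after their values were seen, were of Il4ra, Junb, Serpina3n, Myc and Pim1, with log2 fold changes from 0.88 to 1.95. The 8 that did not pass were Saa3, Mt1, Mt2, Cebpd, Lrg1, Lcn2, Mcl1 and Bcl2l1. Their log2 fold changes ran from -0.43 to 0.68, apart from Saa3 at 4.21, which had at most 15 counts per library. The falls were of Bcl6, by 0.88 on the log2 scale, and Cebpb, by 0.80 (edgeR adjusted p = 0.0218 and 0.0202). Cebpb, a known activator of acute phase genes, was at 1.71 and 1.37 CPM at the tenotomy site and 2.66 to 2.74 in contralateral tendon. These genes respond to other signals too, and several are known from macrophages, whose markers moved with them as given above. The call of Bcl3 was lost with length-scaled TPM and that of Cebpb with DESeq2.

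**Figure D5:**
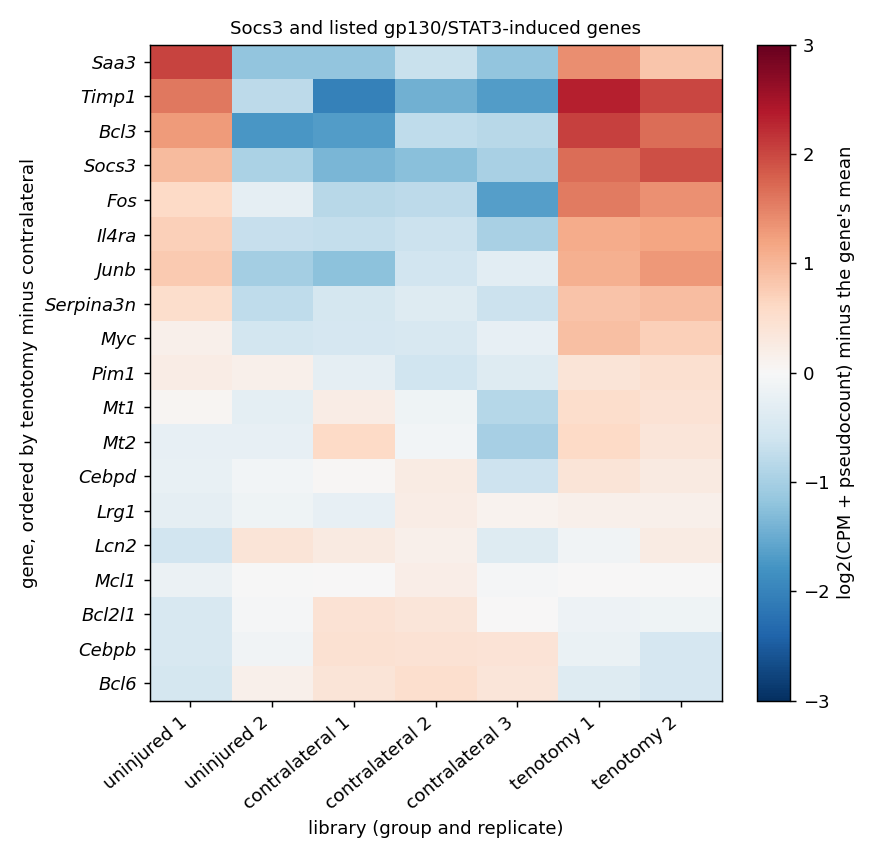
Heat map of Socs3 and 18 listed gp130 and STAT3 target genes (rows, ordered by tenotomy minus contralateral) in the 7 libraries (columns); colour is log2 of CPM plus a pseudocount of 0.0651, minus the gene's mean over libraries. Genes from Timp1 to Pim1 are highest in the tenotomy libraries, and uninjured replicate 1 resembles them more closely than uninjured replicate 2 does.

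Comparison of the tenotomy site with uninjured tendon asked how the cut tendon differed from that of animals with no injury. None of the 8 genes passed in the fit of all libraries, and 0% of all genes did (edgeR); DESeq2 called 0 of the 8 as well, and gave no adjusted p for Il6ra, Lif and Socs3. At an unadjusted p under 0.05 there were 2 of the 8, Socs3 and Stat3, both higher at the tenotomy site, against 10.9% of all genes in either direction and 3.27% higher. The log2 fold change of Socs3 was 1.55 (SE 0.48, edgeR adjusted p = 0.45) and that of Stat3 0.56 (SE 0.18, edgeR adjusted p = 0.45). This result depended on which uninjured library was used. Without uninjured replicate 1, which had tenotomy-like muscle and macrophage marker sums, 4 of the 8 passed and 4275 genes in all. These were Socs3 (log2 fold change 2.84, edgeR adjusted p = 1.05e-05), Lifr (-0.78, adjusted p = 0.000676), Stat3 (0.66, adjusted p = 0.00799) and Osmr (0.58, adjusted p = 0.0189). Without uninjured replicate 2, 0 of the 8 passed and 14 genes in all. The log2 fold change was then 0.87 for Socs3, 0.47 for Stat3 and -0.0053 for Il6st. In both of these fits 1 library stood for the uninjured group and was assumed to vary like the others.

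Contralateral against uninjured tendon asked whether an uncut tendon differs when the animal is injured elsewhere. Here too 0 of the 8 genes passed, 0% of all genes did (edgeR), and DESeq2 called 0 of the 8, with no adjusted p for Lif and Socs3. At an unadjusted p under 0.05, Il11ra1 and Socs3 were lower in contralateral tendon, against 19.2% of all genes in either direction and 10.5% lower. With its copies counted as 1 gene, the log2 difference of Il11ra1 moved from -0.34 to -0.047 (unadjusted p = 0.771, adjusted p = 0.885, edgeR). For Socs3 the log2 difference was -1.55 (SE 0.51; adjusted p = 0.222, edgeR). Without uninjured replicate 1 its log2 fold change was -0.26. Without uninjured replicate 2 it was -2.22. Lif, Il6st, Osmr and Il11ra1 were then also lower in contralateral tendon (log2 fold changes -0.965, -0.46, -0.44 and -0.44), and Lifr was higher (0.75). Many genes outside the family moved as well without that library, so these differences are not particular to the family. That fit compared contralateral tendon with uninjured replicate 1 only, the library with tenotomy-like muscle and macrophage marker sums. In both of these fits 1 library stood for the uninjured group and was assumed to vary like the others. The copies of Il11ra1 were not summed in either fit. Stat3 changed by 0.035 (edgeR adjusted p = 0.918) and its direction turned under several settings. Il6ra was at 2.48 CPM in both uninjured libraries and at 2.88 to 3.15 in contralateral tendon, without passing (log2 fold change 0.29, edgeR adjusted p = 0.306). The 3 comparisons share libraries pairwise, so their values are not independent of each other.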

How the data were processed

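RNA of 7 tendon libraries was sequenced; per the labels' protocols, total RNA was prepared with a TruSeq kit. Per the submitters' processing notes, kallisto and FastQC 0.11.4 were used; the notes name GRCh38, a human build, although the transcript IDs are of mouse. The annotation release is not given in the sources used here. Each deposited file gives estimated counts, which the authors did not normalize, and TPM, which the authors scaled by effective length and library, per the file headers. Of 103639 transcripts, 101510 matched GENCODE M21 (GRCm38) without the ID version. Estimated counts were summed per gene and rounded, and the 2129 unmatched transcripts were kept as features.

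Genes were filtered with filterByExpr (minimum count 10), scaled by TMM and tested with edgeR 4.0.16 (quasi-likelihood, 3 group means, all libraries, R 4.3.3), with Benjamini-Hochberg adjustment over 16028 genes and a threshold of 0.05. Log2 CPM used a prior count of 2. The SE is the log2 fold change divided by the square root of F. On simulated counts with 200 of 16028 genes changed by 2 on the log2 scale, this test of tenotomy against contralateral recovered 152, with 14 other calls. Smaller changes, like those of the family genes other than Socs3, were not simulated. Far fewer genes were changed there than the 4643 that passed in the data. Alternatives were other scalings, DESeq2 1.42.0, limma-voom (limma 3.58.1), no filter, fewer libraries, length-scaled TPM, removal of muscle and mitochondrial genes and a title-series covariate. Added after the data were seen were summed Il11ra1 copies and left-out libraries in the fit of 2 groups. With the title-series covariate, tenotomy replicate 2 and both uninjured libraries were fitted exactly, so tenotomy replicate 1 alone set the tenotomy level. Genes named beside the family were Jak1, Jak2, Tyk2, Clcf1, Il11 and Il11ra2, and per list the 3 largest rises and falls past the threshold without overlap. Some genes that this rule names are not reported here. Members and lists were chosen with earlier results of these data known.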

Additional observations from a re-analysis of the deposited data

How the results depend on the processing

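Between tenotomy and contralateral tendon, 5 of the 8 genes of the family passed. These include Il11ra1, whose rise was lost when its copies were summed. With DESeq2 and with no filter on low counts 2 passed (Socs3 and Lifr), and with length-scaled TPM 3 did. Over all genes, 3743 passed with DESeq2, 5021 with no filter and 3182 with length-scaled TPM. Leaving out 1 library gave between 0 and 7 of the 8 in the fit of all groups and 6 in the fit of these 2 groups. Among all genes, 4643 passed, 7385 in the fit of these 2 groups alone, between 0 and 7336 with 1 library left out of the fit of all groups and between 5245 and 7618 with 1 left out of the fit of 2 groups. Upper quartile scaling moved the median log2 fold change of all genes to 0.113. For tenotomy against uninjured, 0 genes passed, but 145 with DESeq2, 15 with no filter, and between 0 and 4275 with 1 library left out, with between 0 and 4 of the family. For contralateral against uninjured, 0 passed, but 223 with DESeq2, 337 with no filter, and between 0 and 5393 with 1 library left out, with between 0 and 5 of the family. Directions reversed for values that passed in no setting: Il6ra in tenotomy minus contralateral (0.051 with upper quartile scaling, and 0.028 and 0.031 without tenotomy replicate 1 in the fits of all groups and of 2 groups; -0.163 without tenotomy replicate 2), Il6st (-0.0053) and Lif (-0.076) in tenotomy minus uninjured without uninjured replicate 2 (0.334 and 0.829 without uninjured replicate 1), and Stat3 in contralateral minus uninjured (-0.050 with upper quartile scaling, -0.147 with length-scaled TPM, -0.042 without contralateral replicate 2 -0.051 without uninjured replicate 2 and 0.133 without uninjured replicate 1). The causes were not tested. No paired analysis was possible because the labels number no replicates and tie no libraries to the same mouse; the numbers used here only name libraries. Depth limits Il6, Osm and Il11, each with at most 7 counts per library.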

Other observations

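The genes whose pattern over the 7 libraries was most like that of Il6st, among 2018 genes with a mean log2 CPM of at least 3, were Tmem59, Nisch, Itm2b, Slit3 and Ltbp4. Their log2 CPM, centred on each gene's mean, differed from those of Il6st by a root mean square of 0.0355 to 0.046. Tmem59, for example, was at 10.2 and 9.5 CPM at the tenotomy site, 6.83 to 7.48 in contralateral tendon, and 10.3 and 8.09 in uninjured replicates 1 and 2. Ltbp4, which encodes a binding protein of latent TGF-β, was at 35.2 and 37 CPM at the tenotomy site, 24.3 to 27 in contralateral tendon, and 35.8 and 28.6 in the uninjured libraries.

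Transcripts without a coding product made up part of some receptors' counts. Protein-coding transcripts held between 54.6% and 66.6% of the counts of Osmr and between 62% and 75.2% of those of Il11ra1, and the rest of both fell on transcripts annotated with retained introns. For Il6st the coding share was between 97.3% and 99.3%, and for Lifr and Il6ra it was 100%. The coding share of Osmr was 58.5% and 57.8% at the tenotomy site and 54.6%, 63.6% and 66.6% in contralateral tendon, so these groups overlapped. How reads were divided between isoforms comes from the deposited estimates and was not tested.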
